A study of Mus musculus with 11 samples.

Results

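The 9 genes described here are Dusp4 and Dusp6, Spry1, Spry2 and Spry4, Spred1, Etv5, Rap1gap2 and Rapgef5. They encode regulators that act on the ERK kinase cascade or on the small GTPase Rap, except Etv5, which is a target of ERK signalling. They were taken by name, with all of their probe sets, which made 24 of the 45037 probe sets on the array besides controls. Expression had been measured in epididymal fat, a visceral depot beside the testis, of male C57BL/6 mice, all 3 months old and fed standard chow, on 1 Affymetrix array (a single colour) for each sample. Fat rescue mice (aP2B1-B1-/-) gave 3 arrays, B1 knockout mice (B1-/-) gave 4 and wild-type mice (B1+/+) gave 4. Knockout mice lack the kinin B1 receptor, a G protein-coupled receptor encoded by Bdkrb1, in the whole body. Fat rescue mice carry the same deletion, together with receptor expression that the labels describe as selective for fat; aP2 is the older name of Fabp4, and its promoter is known to be active in both adipocytes and macrophages. Arrays of a genotype are labelled as biological replicates, with nothing on litters, and the p-values measure the spread between them.

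The list was drawn up with results of these arrays in view. Dusp4, Rap1gap2 and Rapgef5 were on it because their means in fat rescue lay above those in knockout with some of the smallest unadjusted p-values on the array, at ranks 15, 8 and 9 of 12709 genes, and Dusp4 also ranked 10 in fat rescue against wild type. Their levels in the comparisons with fat rescue are therefore a description and not a test. The other 6 genes belong to the same pathways, and their values in these comparisons are likewise given without a test.

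Growth factor receptors and many G protein-coupled receptors activate Ras, which switches on the kinases Raf, MEK and ERK in turn. ERK then induces genes that damp its own activity, among them phosphatases that remove phosphate from ERK and the Sprouty and Spred proteins, which act between the receptor and Raf. In fat, this cascade takes part in the proliferation of preadipocytes and in the response to insulin and catecholamines. Rap proteins are relatives of Ras that control cell adhesion and junctions, are switched on by exchange factors such as Rapgef5, and are switched off by GTPase-activating proteins such as Rap1gap2.

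Arrays had been scaled by the authors to a trimmed mean of 200, and their median signals lay between 45.6 and 46.6 in fat rescue, 46.5 and 48.8 in knockout, and 41.3 and 45.1 in wild type. The only probe set of Bdkrb1 read 73.4, 57.8 and 60.4 in fat rescue, against 4.8, 29.4, 6.9 and 29.7 in knockout and 5.5, 32.2, 3.7 and 8.9 in wild type, so every fat rescue array was above every other array, while knockout and wild type overlapped at low signal. Whether this probe set lies in the deleted sequence is not given in the sources used here. Fat rescue array 1 and wild-type array 1 stood apart from the other arrays on the first principal component (27.3% of the variance), and counts without both are given with the alternatives. Fat cell markers were bright on every array, and 7 of the 8 epididymis markers on the array were below the array median in every sample. For beta-actin, signal at the 3' end over that at the 5' end, which reflects RNA integrity, was 1.47 to 1.56 in fat rescue, 1.53 to 1.69 in knockout and 1.65 to 1.83 in wild type.

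All 9 genes had at least 1 probe set past the brightness filter, which kept the brightest 60% of the array over all samples, and 18 of their 24 probe sets passed it. The other 6 probe sets, of Spry2, Spry4, Spred1 and Rapgef5, had mean signals between 3.10 and 24.8, too low to compare. Each gene is given by its brightest probe set unless another is named, and levels are not compared between genes because probe sets differ in how brightly they bind.

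Of the dual-specificity phosphatases, Dusp4 was higher in the fat rescue arrays than in all others. Dusp4 (MKP-2) is a nuclear enzyme that dephosphorylates ERK and the stress kinases JNK and p38. Its signal was 419.3, 333.7 and 362.9 in fat rescue, against 249.7, 277.6, 234.7 and 261.2 in knockout and 228.5, 174.2, 192.1 and 264.4 in wild type. No fat rescue array came as low as the highest knockout or wild-type array, while knockout and wild type overlapped. The group means were 372 ± 43.5 in fat rescue (SD, n = 3), 256 ± 18.1 in knockout (n = 4) and 215 ± 40.05 in wild type (n = 4). The log2 difference of fat rescue was 0.54 ± 0.14 (SE) from knockout and 0.80 ± 0.14 from wild type, which are folds of 1.45 and 1.75.

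Dusp6 (MKP-3), the cytoplasmic phosphatase that is specific for ERK, followed Dusp4 in its means but not on every array. It read 474.5, 594.1 and 696.1 in fat rescue, 483.9, 490.4, 512.6 and 494.7 in knockout, and 372.9, 512.8, 416.0 and 468.2 in wild type. Fat rescue arrays 2 and 3 were above every other array, while fat rescue array 1 fell inside the wild-type range and below all 4 knockout arrays. The knockout arrays lay close together (SD 12.3). The mean of Dusp6 was higher in fat rescue than in knockout by 0.23 ± 0.13 and than in wild type by 0.40 ± 0.13 on the log2 scale. The difference from knockout was 0.38 without fat rescue array 1 and 0.10 without fat rescue array 3.

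**Figure D1:**
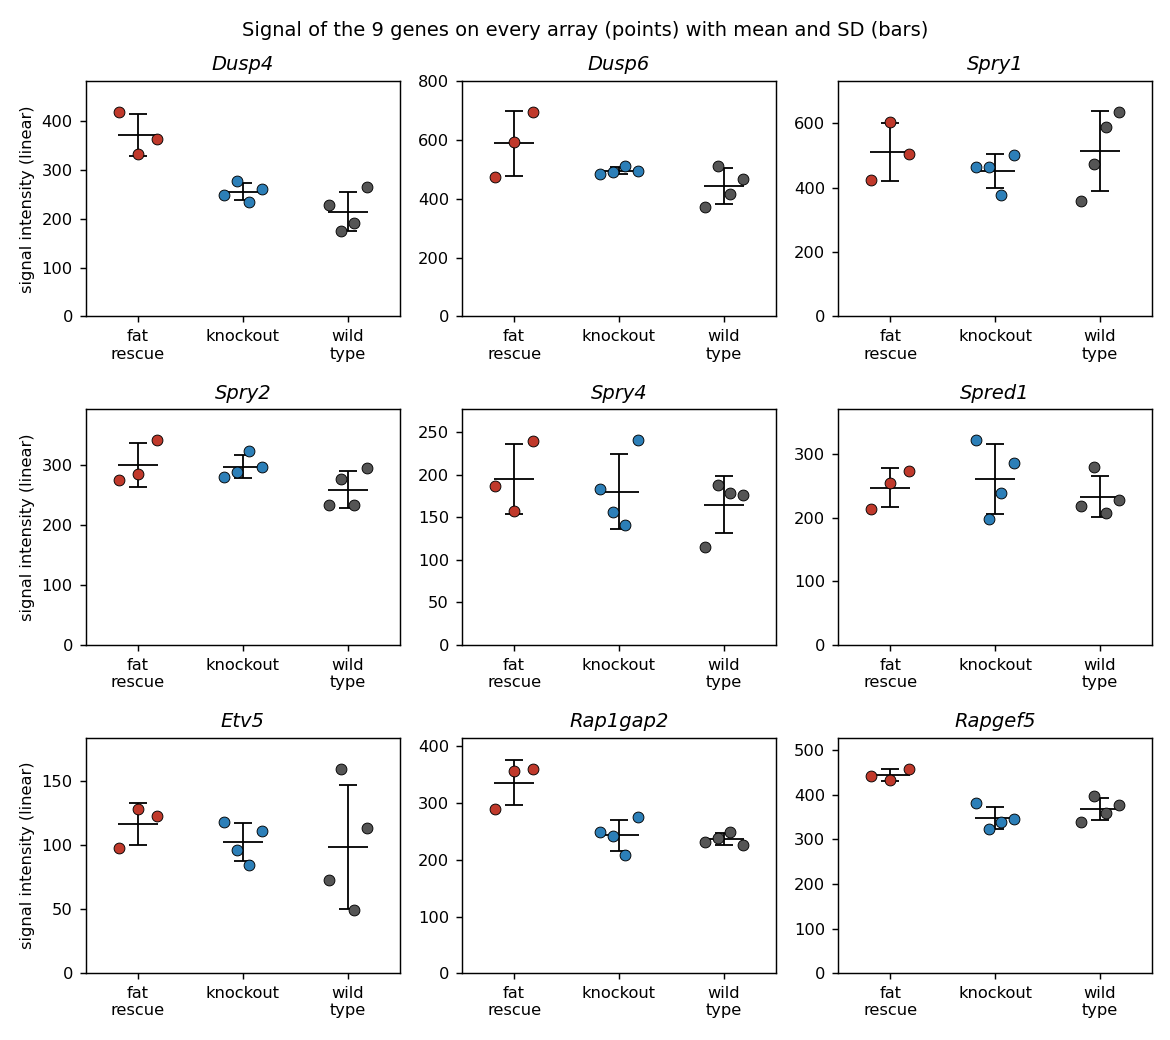
Signal intensity (linear, y axis from 0) of the brightest probe set of each gene on every array, with fat rescue (3 arrays), knockout (4) and wild type (4) along the x axis; points are arrays and bars the mean and SD. In Dusp4, Rap1gap2 and Rapgef5 all fat rescue points lie above the knockout and wild-type points, while the 3 groups overlap in the Sprouty genes, Spred1 and Etv5.

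The Sprouty genes, whose products hold back Ras and Raf activation below receptor tyrosine kinases, overlapped between all 3 genotypes. Spry1 read 425.2, 603.4 and 504.5 in fat rescue, 462.9, 464.7, 377.3 and 501.8 in knockout, and 359.2, 473.4, 587.2 and 635.9 in wild type. Its wild-type arrays spanned both the lowest and the highest value of the series. Spry2 read 274.4, 284.4 and 341.6 in fat rescue, 279.8, 288.2, 323.9 and 296.4 in knockout, and 233.0, 276.2, 233.2 and 295.0 in wild type. Fat rescue and knockout had nearly equal means in Spry2 (log2 0.01 ± 0.12), and both means were above that of wild type, by 0.21 ± 0.12 and 0.20 ± 0.11.

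Spry4 read 187.1, 157.8 and 239.6 in fat rescue, 183.1, 155.9, 141.2 and 240.4 in knockout, and 114.8, 188.0, 179.0 and 176.6 in wild type. Wild-type array 1 was well below the other 3 wild-type arrays, and the highest fat rescue and knockout arrays were almost equal. The next probe set of Spry4 gave 43.9, 94.2 and 100.4 in fat rescue, 81.0, 53.7, 75.1 and 128.2 in knockout, and 35.9, 156.1, 56.8 and 76.5 in wild type, again with full overlap.

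Spred1, which brings the Ras inactivator neurofibromin to the membrane, had 8 probe sets, of which 6 passed the filter. The brightest read 213.1, 254.3 and 273.8 in fat rescue, 321.4, 197.2, 237.9 and 285.5 in knockout, and 218.1, 279.4, 207.1 and 227.3 in wild type. Knockout held both its highest and its lowest array. The 6 probe sets did not move as 1: fat rescue minus knockout ranged from -0.20 to 0.33 on the log2 scale, with 4 higher and 2 lower. Knockout minus wild type ranged from -0.20 to 0.48, with 5 higher and 1 lower.

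Etv5 encodes a transcription factor of the ETS family and is a well-known target of fibroblast growth factor and ERK signalling. It read 97.8, 128.5 and 123.1 in fat rescue, 118.2, 96.3, 84.8 and 110.7 in knockout, and 73.0, 159.7, 49.6 and 113.5 in wild type. The wild-type arrays differed among themselves by more than the groups did. Its dimmest probe set, at 51.5, 53.0 and 69.7 in fat rescue and 47.1, 34.5, 38.9 and 40.7 in knockout, had no overlap between these genotypes, but its wild-type arrays, at 55.8, 46.6, 58.0 and 30.7, covered most of that span. All 3 Etv5 probe sets had higher means in fat rescue than in knockout, by 0.13 to 0.52.

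Both Rap regulators stood higher in fat rescue. Rap1gap2, a GTPase-activating protein of Rap1 best known from human platelets, read 289.7, 356.5 and 360.5 in fat rescue, 248.6, 241.4, 209.1 and 275.5 in knockout, and 231.1, 239.0, 249.1 and 226.0 in wild type. Every fat rescue array was above every other array, fat rescue array 1 by the least, and the wild-type arrays lay within the knockout range. Its means were 336 ± 39.8 in fat rescue (n = 3), 244 ± 27.3 in knockout (n = 4) and 236 ± 10.1 in wild type (n = 4), with log2 differences of 0.46 ± 0.12 from knockout and 0.50 ± 0.12 from wild type.

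Rapgef5, an exchange factor that activates Rap and so opposes a GTPase-activating protein, read 442.7, 432.6 and 458.4 in fat rescue, 382.1, 324.4, 337.9 and 345.0 in knockout, and 338.7, 398.0, 359.2 and 376.5 in wild type. The fat rescue arrays were close together and above all others. Their mean of 445 ± 13.0 (n = 3) compares with 347 ± 24.7 in knockout (n = 4) and 368 ± 25.2 in wild type (n = 4), log2 differences of 0.36 ± 0.09 and 0.27 ± 0.09. A further Rapgef5 probe set of nearly the same brightness read 406.5, 360.8 and 451.1 in fat rescue, 338.8, 371.4, 356.0 and 356.4 in knockout, and 337.6, 336.3, 386.1 and 404.6 in wild type. There the groups overlapped, through fat rescue array 2, and the differences were 0.19 from knockout and 0.15 from wild type. Rapgef5 lies on chromosome 12, as does Bdkrb1, with 93 protein-coding genes between them in the assembly GRCm38.p6; the other members are on other chromosomes.

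Since Rap1gap2 and Rapgef5 were high on the same 3 arrays, the sequence at their most upstream RefSeq start is shown, with that of Spry2, which was not. Each is 300 bases (250 before and 50 after the start, GRCm38.p6, 5′ to 3′ on the gene's strand), at chr11:74610866-74611165 on the minus strand for Rap1gap2, chr12:117516276-117516575 on the plus strand for Rapgef5 and chr14:105896770-105897069 on the minus strand for Spry2. Capitals mark any match on either strand to CCGGAA, the core bound by ETS factors such as Etv5, to TGACGTCA, the full cyclic AMP response element, or to TGANTCA, the AP-1 site bound by Fos and Jun.
Rap1gap2: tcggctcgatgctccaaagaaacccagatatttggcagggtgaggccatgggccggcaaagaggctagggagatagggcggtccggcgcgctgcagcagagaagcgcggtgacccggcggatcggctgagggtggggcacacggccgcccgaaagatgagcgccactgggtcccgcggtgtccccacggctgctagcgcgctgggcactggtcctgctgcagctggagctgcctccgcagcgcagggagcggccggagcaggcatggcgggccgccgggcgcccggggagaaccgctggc
Rapgef5: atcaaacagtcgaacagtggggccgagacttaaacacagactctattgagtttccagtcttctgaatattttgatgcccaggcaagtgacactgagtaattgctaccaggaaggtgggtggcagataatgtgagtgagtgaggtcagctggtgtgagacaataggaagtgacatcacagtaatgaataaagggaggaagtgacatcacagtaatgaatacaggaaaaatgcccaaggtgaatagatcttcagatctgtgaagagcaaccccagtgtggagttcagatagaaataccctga
Spry2: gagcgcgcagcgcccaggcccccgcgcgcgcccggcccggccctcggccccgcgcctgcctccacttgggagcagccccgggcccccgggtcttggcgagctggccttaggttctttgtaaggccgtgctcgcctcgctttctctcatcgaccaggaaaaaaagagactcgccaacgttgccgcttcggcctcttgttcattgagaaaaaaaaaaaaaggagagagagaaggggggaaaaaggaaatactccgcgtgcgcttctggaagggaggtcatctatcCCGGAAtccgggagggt

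Sequences at RefSeq starts were taken for 7 of the 9 genes, with 12 start sites. None was at hand for Dusp4, and sites on chromosome 18, where Spry4 lies, were left out of the search. CCGGAA was present at 1 of these 12 sites, that of Spry2, and TGACGTCA and TGANTCA at 0 of them. Over all 32851 sites of the same length the shares were 14.9% for CCGGAA, 1.79% for TGACGTCA and 7.81% for TGANTCA. A match in such a window is a description of its letters, and a missing match says nothing of the factor.

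Fat rescue was set against knockout to see what differs once the receptor is put back in fat. Of the 9 genes, 8 had higher means in fat rescue and 1, Spred1, a lower mean (from 6 to 9 higher over the 24 alternatives), with a median log2 difference of 0.19; over all 12709 genes 52.6% were higher and the median was 0.01. The groups did not overlap in 3 of the 9, Dusp4, Rap1gap2 and Rapgef5, all higher and all chosen on this comparison, beside 2.84% of all genes higher and 2.09% lower. In the other 6 genes the median was 0.15 and none was free of overlap. No gene of the table passed an adjusted p of 0.05 in limma in this comparison (0 of 12709, or 0%; 484 genes, 3.81%, had an unadjusted p under 0.05), so none of the 9 did. Without fat rescue array 1, the number free of overlap was 6, with Dusp6, Spry1 and Etv5 added, and the share of all genes higher without overlap was 7.26% in place of 2.84%. Endothelial markers were higher in fat rescue than in knockout in 16 of 18 genes (median 0.19), with summed signals of 14114 to 17515 in fat rescue and 12705 to 15328 in knockout. Mesothelial markers were higher in 9 of 12 (median 0.24, sums of 6252 to 6857 in fat rescue and 5078 to 6713 in knockout). Macrophage markers were higher in 11 of 15 (median 0.14) and lymphocyte markers in 6 of 9 (0.15). Immediate early genes were higher in 14 of 17 (0.11) and smooth muscle and pericyte markers in 9 of 12 (0.11). Fat cell markers were higher in 7 of 10 (0.02) and fibroblast markers in 4 of 11 (-0.01). The part of these lists in the values of Dusp4, Rap1gap2 and Rapgef5 was not tested. In whole tissue a change in the number of cells of a type cannot be told apart from a change in RNA per cell.

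**Figure D2:**
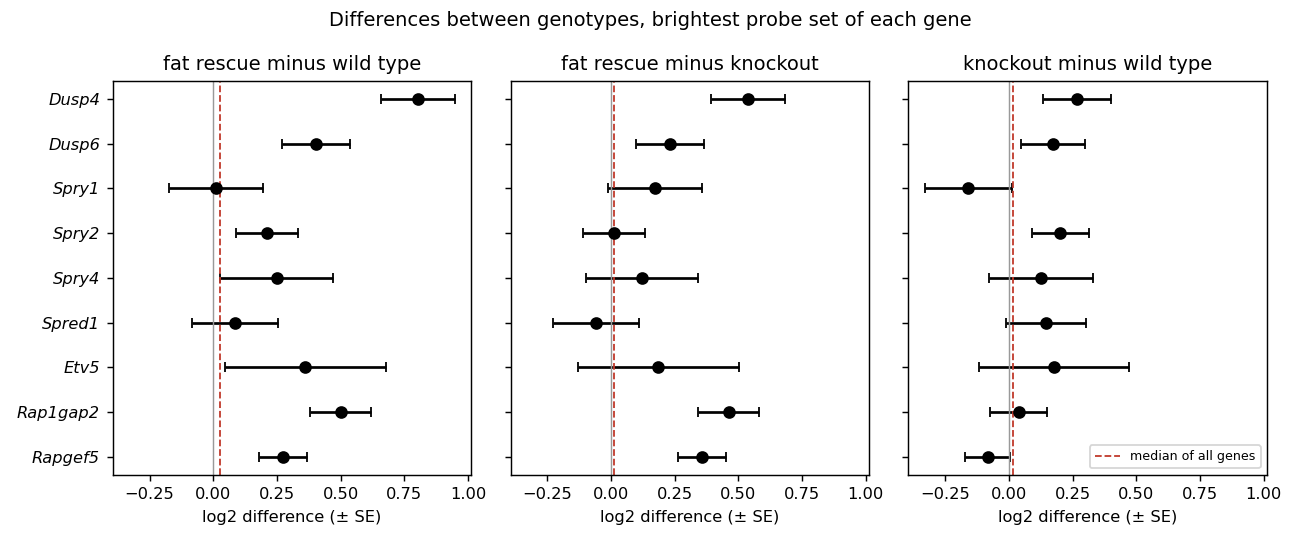
Log2 difference between genotypes (x axis, points, with SE as bars) of the 9 genes (y axis) in each of the 3 comparisons; the dashed line is the median of all 12709 genes. Dusp4 at 0.80 and 0.54, Rap1gap2 at 0.50 and 0.46 and Rapgef5 at 0.27 and 0.36 lie to the right in both comparisons with fat rescue, and all knockout minus wild type values lie between -0.16 and 0.27.

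Knockout was compared with wild type to see what accompanies absence of the receptor. The choice of genes did not use this comparison. It did use the same knockout and wild-type arrays, each set against fat rescue, so these values are not independent of the choice. None of the 9 passed limma's adjusted p of 0.05 over all genes, where 0.0393% of genes did, and none had an unadjusted p under 0.05, where 7.30% of genes did (adjusted p from 0.701 for Dusp4 to 0.952 for Rap1gap2). By brightest probe sets Dusp4 had the largest mean difference, at 0.27 ± 0.13 on the log2 scale with a 95% interval from -0.02 to 0.56. Spry2 came next at 0.20 (interval -0.04 to 0.45), ahead of Etv5 at 0.18 (-0.46 to 0.81) and Dusp6 at 0.17 (-0.10 to 0.44). The intervals of Rap1gap2 (-0.20 to 0.28) and Rapgef5 (-0.27 to 0.10) were the narrowest of the 9, and that of Etv5 the widest. Spry1 (-0.16) and Rapgef5 (-0.08) had lower means in knockout. A dimmer probe set of Spred1 gave 0.48 when probe sets were fitted singly (limma unadjusted p = 0.0140, adjusted p = 0.706). The brightest of Spred1 gave 0.15, and of its 6 past the filter 5 were higher and 1 lower. The smallest two-sided exact permutation p among the 9 was 0.114, for Spry2, where 4 arrays against 4 allow 0.0286. In no gene were the groups free of overlap, beside 1.98% of all genes higher and 1.86% lower.

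As a group, 7 of the 9 had higher means in knockout than in wild type, where 53.7% of all genes did, and the median was 0.15 against 0.02 over all genes. When each array was centred on its median the number was 4 and the median of all genes moved to -0.13. Centring moves every gene by the same amount, so the count rests on the scaling. The distance of the 9 genes from the median of all genes does not. The share of all genes with higher means was not counted in that setting. Cell-type markers differed in their means here too, though none passed: all 10 fat cell markers had lower means in knockout (median -0.23; sums of 77696 to 105329 in knockout and 85939 to 113476 in wild type), and all 15 macrophage markers had higher means (median 0.26; sums of 19933 to 40088 in knockout and 17946 to 25809 in wild type). Lymphocyte markers were higher in 8 of 9 (median 0.33, sums of 1083 to 2204 in knockout and 767 to 1200 in wild type). Knockout array 1 stood out in both lists. Its mean log2 signal of macrophage markers minus the wild-type mean was 0.91, against 0.13, -0.04 and 0.15 on knockout arrays 2, 3 and 4. For lymphocyte markers it was 0.77, against 0.25, 0.22 and 0.36. Wild-type arrays ran from -0.23 to 0.27 in macrophage markers and from -0.69 to 0.34 in lymphocyte markers. Immediate early genes, which also respond to tissue handling, were higher in 11 of 17 (median 0.23), and their sums did not overlap (10529 to 11421 in knockout and 9728 to 10384 in wild type). The part of these lists in the values of the 9 genes was not tested.

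Fat rescue against wild type shares its arrays with both other comparisons. All 9 genes had higher means in fat rescue, where 55.7% of all genes did, with a median of 0.27 beside 0.03 over all genes. The groups did not overlap in 3 genes, again Dusp4, Rap1gap2 and Rapgef5, beside 5.74% of all genes. No member was among the genes that passed in limma over all genes (2 of 12709, 0.0157%). Over all genes 8.09% had an unadjusted p under 0.05 and 3.50% were lower in fat rescue without overlap, and none of the 9 was of the last kind. Spry1 had nearly the wild-type mean (log2 0.01), and its difference was below 0 in 7 of the 24 other settings; centring on the array median also turned Spred1 to -0.016 and left Dusp4 and Rap1gap2 as the genes without overlap. Macrophage markers were higher in 14 of 15 genes (fat rescue sums of 26283 to 31473 against 17946 to 25809), mesothelial markers in 11 of 12 (6252 to 6857 against 3716 to 5791) lymphocyte markers in 9 of 9 (median 0.49; 1424 to 1545 against 767 to 1200) and immediate early genes in 15 of 17 (10899 to 12703 against 9728 to 10384). These summed signals did not overlap between fat rescue and wild type, nor did the beta-actin ratio given above, while the Gapdh ratio did overlap. Fat cell markers were lower in 9 of 10 (median -0.17), with fat rescue sums of 84504 to 101039 that overlapped the wild-type sums of 85939 to 113476. None of these markers passed, and their part in the values of the 9 genes was not tested.

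**Figure D3:**
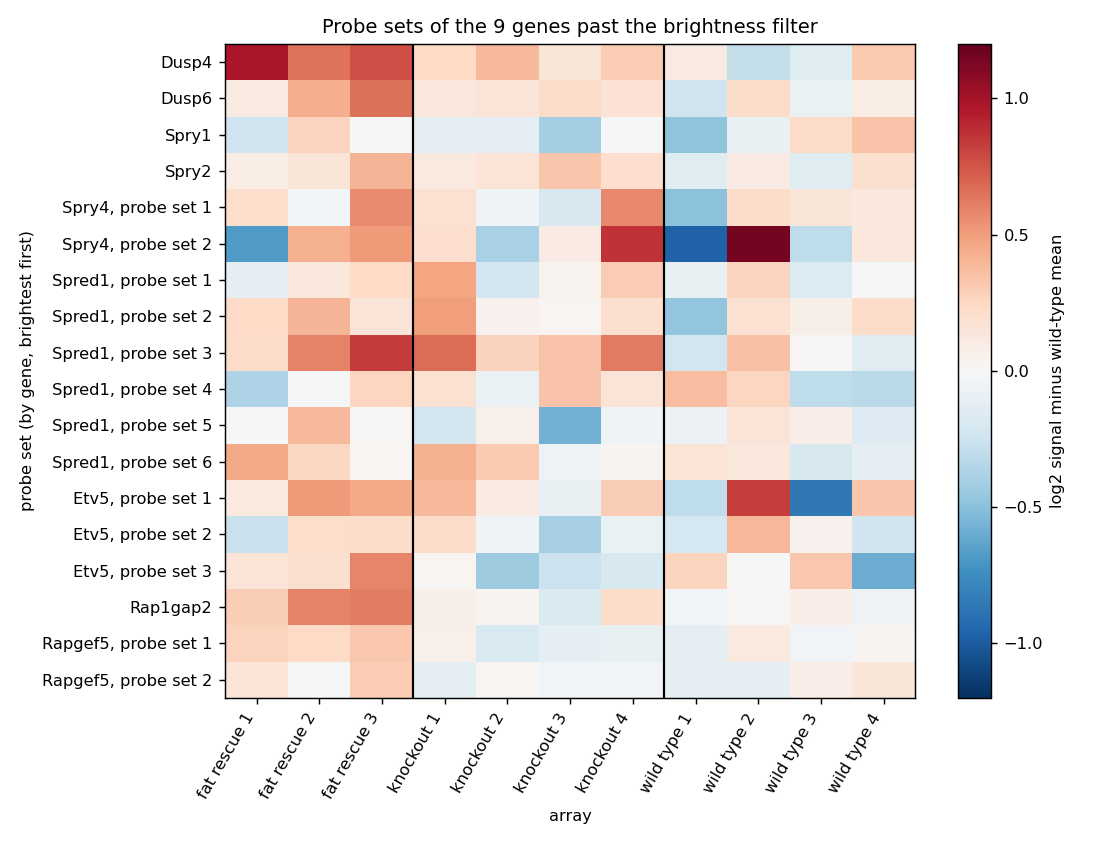
Log2 signal minus the wild-type mean (colour) of the 18 probe sets past the brightness filter (rows, by gene) on each of the 11 arrays (columns; fat rescue, knockout, wild type). Dusp4 and Rap1gap2 are above the wild-type mean on all 3 fat rescue arrays, while the probe sets of Spry4, Spred1 and Etv5 vary between arrays of a genotype.

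No array was the highest or the lowest in all 9 genes. Fat rescue array 3 was the highest of all 11 arrays in 4 genes (Dusp6, Spry2, Rap1gap2 and Rapgef5), and fat rescue array 1 was the highest in Dusp4. Wild-type array 1 was the lowest in 4 genes (Dusp6, Spry1, Spry2 and Spry4), and knockout array 2 in Spred1 and Rapgef5. Wild-type arrays were the highest in Spry1 (array 4, 635.9) and Etv5 (array 2, 159.7), and knockout arrays in Spry4 and Spred1. The 5 genes outside the list whose log2 signal over the 11 arrays was most like that of Dusp4 by Pearson's r were Ess2 (0.90), Zfp217 (0.89), Daam1 (0.89), Rpia (0.88) and Impact (0.87), with Spearman's rho of 0.93, 0.94, 0.87, 0.86 and 0.84. They were picked as the highest of all genes tested, so no p is given, and the arrays share their genotype groups and scaling.

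Of 171 other genes of the ERK and Rap pathways, 149 were measured, and none passed over all genes in any of the 3 comparisons. The smallest adjusted p in limma was 0.998 in fat rescue against knockout, 0.315 in knockout against wild type and 0.150 in fat rescue against wild type. At an unadjusted p under 0.05 there were 5 higher and 1 lower in fat rescue against knockout, where 2.09% and 1.72% of all genes were, 9 higher and 8 lower in knockout against wild type (3.94% and 3.36% of all genes), and 16 higher and 4 lower in fat rescue against wild type (4.60% and 3.49%). The pathway genes were listed by role, with earlier results of the arrays known.

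The core cascade had no gene past the threshold. Of 14 Raf, MEK and ERK kinases and scaffolds, 7 were higher and 7 lower in fat rescue against knockout and again in knockout against wild type (medians 0.01 and -0.02), while 5 were higher and 9 lower in fat rescue against wild type (median -0.03). Of 19 growth factor receptors, 10 were higher in fat rescue than in knockout and 9 were higher in knockout than in wild type (medians 0.02 and -0.01). The EGF receptor gene Egfr averaged 455 in knockout and 350 in wild type (log2 0.37 ± 0.17, adjusted p = 0.683), but a probe set of nearly the same brightness gave -0.03. Dimmer Egfr probe sets, with mean signals of 338, 94.1 and 68.0, gave 0.16, 0.13 and 0.19. The dimmest, at 24.9 and 6.34, gave 1.21 and -0.23. The VEGF receptor gene Flt1, which is also an endothelial marker, averaged 350 in knockout and 439 in wild type (-0.35 ± 0.15, adjusted p = 0.683). Neither passed. Of 23 receptor ligands, 12 were higher in fat rescue than in knockout (median 0.05), 14 in knockout than in wild type (0.04) and 16 in fat rescue than in wild type (0.16), and none passed. Nrg4, a growth factor that fat secretes and that binds the ERBB4 receptor, averaged 766 in fat rescue and 1121 in wild type (log2 -0.54 ± 0.17). Its knockout arrays read 713.2, 899.2, 1028.9 and 623.4. Knockout minus wild type was -0.47 in Nrg4 and fat rescue minus knockout -0.07, so both lines had lower means than wild type.

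Adaptors and regulators of Ras had mostly lower means in knockout. Of 22 measured, 16 were lower and 6 higher in knockout than in wild type (median -0.06), and 18 were higher in fat rescue than in knockout (median 0.12), comparisons that share the knockout arrays. Dab2ip, a GTPase-activating protein of Ras, read 798.7, 878.9, 720.5 and 854.9 in knockout, against 958, 1063.7, 1232.9 and 1223.7 in wild type (log2 -0.46 ± 0.10, adjusted p = 0.355). The groups did not overlap, yet the gene did not pass, except after centring on the array median (adjusted p = 0.0414), and its dimmer probe set gave a log2 difference of 0.14. Rras, a relative of Ras, averaged 2098 in knockout and 2547 in wild type (-0.27 ± 0.09, adjusted p = 0.592), and 2470 in fat rescue.

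Further feedback inhibitors also had no gene past the threshold. Of 20 measured, 12 were higher in fat rescue than in knockout and 13 higher in knockout than in wild type (medians of 0.05 in both), and 14 were higher in fat rescue than in wild type (median 0.12). The phosphatase gene Dusp7 averaged 151 in fat rescue, 122 in knockout and 115 in wild type, and Dusp8 averaged 57.4 in fat rescue, 78.7 in knockout and 77.2 in wild type, so fat rescue had the highest mean of Dusp7 and the lowest of Dusp8. Dimmer probe sets differed: in fat rescue minus knockout those of Dusp7 gave -0.06 and 0.0021 against 0.33, and in fat rescue minus wild type those of Dusp8 gave 0.93 and 0.82 against -0.42. Dusp14 had the widest difference, 52.7 in knockout and 24.5 in wild type (log2 1.60 ± 0.59), at low signal and with wild-type arrays from 6.60 to 45.1. None of these passed in any comparison (adjusted p from 0.595 upwards).

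Other ERK target genes had mostly higher means in both lines without the native receptor. The list also holds factors through which ERK acts, the Elk genes and Srf. Of 24 measured, 20 were higher in fat rescue than in knockout (median 0.12) and 20 in knockout than in wild type (0.17). In fat rescue against wild type 23 were higher (0.35), and none passed in any comparison. Over all genes the shares with higher means were 52.6%, 53.7% and 55.7%. The list counts were not repeated with arrays centred on their medians. That setting moved the median of all genes to -0.13 in knockout against wild type and -0.07 in fat rescue against wild type. Plaur, the urokinase receptor gene, read 139.7, 143.7 and 197.3 in fat rescue, 144.3, 111.9, 108.8 and 117.1 in knockout, and 94.7, 81, 71.8 and 98.2 in wild type. Every array of fat rescue and of knockout was above every wild-type array, while fat rescue and knockout overlapped. The log2 difference of fat rescue from wild type was 0.88 ± 0.18 in Plaur (adjusted p = 0.188) and 0.89 ± 0.21 in the transcription factor gene Egr1 (adjusted p = 0.320). The transcription factor gene Junb averaged 137 in knockout and 83.6 in wild type (0.72 ± 0.16, adjusted p = 0.315). Of these 24 genes 6 are also on the list of immediate early genes, and among the remaining 18 there were 17 higher in fat rescue than in wild type (median 0.27) and 14 in knockout than in wild type (median 0.07).

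**Figure D4:**
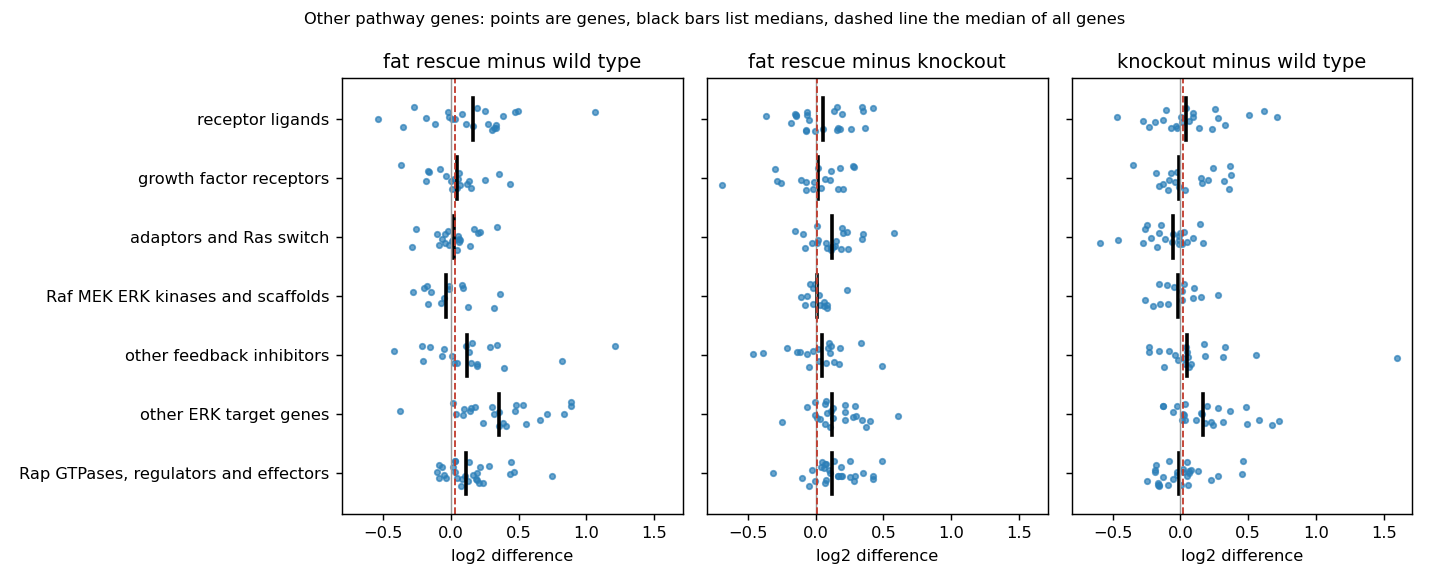
Log2 difference (x axis) of each measured gene (points) of the 7 pathway lists (y axis) in the 3 comparisons, with list medians as black bars and the median of all 12709 genes as a dashed line. The median of other ERK target genes is at 0.35 in fat rescue minus wild type and 0.17 in knockout minus wild type, and that of the Raf, MEK and ERK kinases at -0.03 and -0.02.

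Rap GTPases, their regulators and effectors were higher in fat rescue than in knockout in 23 of 28 genes (median 0.12) and evenly divided between knockout and wild type, with 14 higher and 14 lower. Arap3, a GTPase-activating protein for Arf6 and RhoA that Rap binds, read 744.7, 581.7 and 740.9 in fat rescue and 563.4, 499.7, 516.8 and 465.1 in knockout, without overlap (log2 0.42 ± 0.13, adjusted p = 0.998), and its wild-type arrays, at 622.8, 469.2, 580.7 and 665.6, overlapped both. The next probe set of Arap3 gave 0.14. Plk2, a kinase that triggers the breakdown of a Rap inactivator in neurons and was listed with its earlier result known, averaged 299 in fat rescue, 245 in knockout and 181 in wild type. Fat rescue exceeded wild type in Plk2 by 0.74 ± 0.14 (adjusted p = 0.150, and 0.0325 without wild-type array 1). Rassf5, an effector of Rap in lymphocyte adhesion, averaged 169 in knockout and 122 in wild type (0.46 ± 0.16, adjusted p = 0.631), and its other probe set gave 0.06.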

How the data were processed

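Values were the authors' deposited linear signal intensities of 11 arrays; the submitters' processing notes name GCOS 1.3 and MAS5. Each array had a mean of 200 without its lowest and highest 2% of probe sets, and the table has no detection calls. Log2 was taken after 1 value of 0 was set to 0.1; array medians differed by 0.241 (log2), under the limit of 0.5 for further normalization. The array has 45101 probe sets; besides 64 controls, 34945 carry 1 gene symbol, 932 several and 9160 none. The upper 60% (27022) were kept, with the brightest probe set per gene (12709 genes). All 11 arrays were fitted with limma 3.58.1 in R 4.3.3 (eBayes with trend; statmod 1.5.0), genotype as the only factor, two-sided, with Benjamini-Hochberg adjustment over all genes at 0.05; probe sets were also fitted singly. The fit was tested on simulated data. The members and lists were chosen with earlier results of these data known. Genes named are the members with their probe sets, pathway genes with the smallest unadjusted p, those most like Dusp4, and Bdkrb1. The labels number replicates from 1 in each genotype without saying that a number is shared, so arrays were not paired. Deviations of same-numbered arrays correlated between -0.14 and 0.35, over 0.1 in 4 of 10 pairs. Those of differently numbered arrays correlated between -0.31 and 0.28, over 0.1 in 5 of 30 pairs. These values do not settle whether a number is shared, and a fit with the replicate number as a block is given with the alternatives. No batch or scan date is given. Precision is limited by how few arrays there are. Array pairs correlated between 0.906 and 0.924, and no 2 were identical.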

Additional observations from a re-analysis of the deposited data

Results flagged for a closer look

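Spry4 on wild-type array 1 read 114.8, apart from the other 3 wild-type arrays at 176.6 to 188.0. The gap was 0.873 of the group's range on the log2 scale, above Dixon's 95% critical value for 4 arrays. It was the only such value in 94 groups of 4 arrays tested, where chance flags about 5%. Without that array Spry4 in knockout minus wild type was -0.038 in place of 0.13.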

How the results depend on the processing

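None of the 9 genes passed in any comparison under the 24 alternatives, nor did any of their probe sets under 20. With the replicate block 0 of the 9 genes and 0 of the other pathway genes passed in each comparison, while over all genes 8 passed in knockout against wild type in place of 5. Over all genes the alternatives gave from 2 to 14 genes past the threshold in knockout against wild type and from 1 to 8 in fat rescue against wild type, most without wild-type array 1 in both, and 0 in fat rescue against knockout. Leaving out each array in turn gave 3 to 6 genes without overlap (higher) in fat rescue against knockout, most without fat rescue array 1 (7.26% of all genes there), and 0 to 2 in knockout against wild type, most without wild-type array 4 (4.17% of all genes); without fat rescue array 1 and wild-type array 1 together, chosen after seeing the data, the first was 6. Centring on array medians gave 4 genes with higher means in knockout than wild type in place of 7, and 1 pathway gene (Dab2ip) past the threshold; leaving out single arrays gave 0 to 1 pathway gene in fat rescue against wild type (Plk2, without wild-type array 1). In knockout minus wild type, signs turned for Rap1gap2 with quantile normalization (-0.0010), centring (-0.11) and without knockout array 4 (-0.023), for Spry4 with centring (-0.023), without both of those arrays (-0.038) and over single arrays left out (-0.038 to 0.23, below 0 without wild-type array 1 or knockout array 4), for Spred1 with centring (-0.0031), and for Etv5 with the mean of its probe sets (-0.036) and without wild-type array 3 (-0.11). Rap1gap2 ranged from -0.023 to 0.11 and Etv5 from -0.11 to 0.45 over single arrays left out. In fat rescue minus knockout the sign turned in 4 of 24 alternatives for Spred1, 3 for Spry2 and 1 for Spry4, with ranges over single arrays left out of -0.19 to 0.05, -0.09 to 0.07 and -0.038 to 0.27; Spred1 was 0.04 without both arrays. Etv5 in fat rescue minus wild type ran from 0.08 to 0.64. Dusp4, Rap1gap2 and Rapgef5 kept their direction in both comparisons with fat rescue in all 24, at 0.45 to 0.61, 0.39 to 0.56 and 0.27 to 0.41 against knockout. They were chosen for high values in fat rescue, and by their brightest probe sets these arrays lay above all others. Leaving out an array could therefore not turn their signs, and the kept direction is no support for a difference. The table has no detection calls, so how far dim probe sets lie above background is not known here.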
